A study of Mus musculus with 8 samples.

Results

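The collagen genes of whole mouse mammary tumors are described here, class by class. The members were the 41 collagen alpha chains of a fixed list that had a row with 1 gene symbol on the array, out of 22180 genes with such a row, and every listed chain was measured. Of the 44 collagen symbols of the usual form on the array, 3 were not in the list and were not analysed here. The chains fell into 10 fibrillar, 6 type IV, 5 type VI, 9 fibril-associated and 4 transmembrane chains, and 7 others.

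The series measured total RNA from 8 intact tumors of 3 to 4 month old MMTV-PyMT mice on a congenic FVB/NJ background, with Affymetrix arrays. The 4 conditional knockout (cKO) tumors came from MMTV-Cre+/Mmp14(f/f) mice. The 4 control tumors, which the submitters call wild-type (WT), came from Mmp14(f/f) littermates that carry the same floxed alleles and the PyMT transgene but no Cre. MMTV-Cre is driven by a viral promoter active mainly in mammary epithelium, so fibroblasts and vessels of the cKO tumors are not its intended target, and the groups differ in the Cre transgene as well as in Mmp14. The RNA came from all cells of a tumor, in which fewer cells of a type and less RNA per cell cannot be told apart.

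Collagens are trimers of alpha chains wound into a triple helix. Fibrillar collagens form the cables of the stroma, fibril-associated collagens coat them, type VI collagen forms beaded microfilaments close to cells, and type IV collagen forms the sheet of basement membranes. In mammary tumors most stromal collagen is made by fibroblasts, while epithelial and vascular cells also make basement membrane chains. Mmp14 encodes a membrane-anchored metalloproteinase that cleaves fibrillar collagen.

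Sequence before the start of 34 of the 41 chains was in the RefSeq promoter table (mouse build GRCm38.p6), in 37 windows. The 250 bases before the start are printed for 3 chains that were lower in cKO tumors with the same tumor at the bottom (Col1a2, Col3a1 and Col6a1) and for Col9a1, a chain whose group means differed by less than 0.01. Capitals mark the 3 motifs searched on both strands, which share no bases here: CCAAT (the CCAAT box), GGGCGG (the GC box) and TATAAA (the TATA box).
Col1a2, chr6:4505368-4505617, plus strand: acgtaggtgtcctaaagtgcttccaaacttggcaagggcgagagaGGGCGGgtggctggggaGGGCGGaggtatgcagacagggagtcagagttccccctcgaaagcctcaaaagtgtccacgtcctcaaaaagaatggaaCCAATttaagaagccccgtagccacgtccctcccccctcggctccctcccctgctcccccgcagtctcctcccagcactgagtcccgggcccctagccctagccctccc
Col3a1, chr1:45311288-45311537, plus strand: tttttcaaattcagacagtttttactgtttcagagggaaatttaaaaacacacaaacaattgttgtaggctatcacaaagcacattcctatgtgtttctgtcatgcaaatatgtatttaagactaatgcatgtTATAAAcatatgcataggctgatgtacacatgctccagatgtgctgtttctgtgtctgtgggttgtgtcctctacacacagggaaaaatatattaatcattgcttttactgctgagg
Col6a1, chr10:76726045-76726294, minus strand: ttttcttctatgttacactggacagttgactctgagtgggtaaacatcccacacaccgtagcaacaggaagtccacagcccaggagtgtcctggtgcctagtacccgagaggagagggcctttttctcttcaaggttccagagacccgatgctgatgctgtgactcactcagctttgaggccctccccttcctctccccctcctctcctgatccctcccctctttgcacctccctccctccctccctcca
Col9a1, chr1:24177360-24177609, plus strand, the first of the starts listed for this gene: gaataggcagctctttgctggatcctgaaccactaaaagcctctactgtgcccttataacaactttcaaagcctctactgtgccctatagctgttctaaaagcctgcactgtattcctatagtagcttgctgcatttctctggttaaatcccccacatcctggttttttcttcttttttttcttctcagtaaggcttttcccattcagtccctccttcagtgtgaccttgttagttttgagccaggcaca

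The Col1a2 sequence holds a CCAAT box that starts 109 bases before the gene's start and GC boxes at 205 and 188 bases, and the Col3a1 sequence holds a TATA box at 117 bases. None of these letters occur in the printed Col6a1 and Col9a1 sequences. Another start listed for Col9a1, whose sequence is not printed, has a CCAAT box 18 bases before it. Over all 32851 windows of the table, 33.8% held a CCAAT box, 32.7% a GC box and 12.4% a TATA box in these 250 bases. Among the 37 collagen windows the counts were 12, 21 and 5. The 3 chains with like differences between groups therefore had no motif of the 3 in common.

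The values are log2 signals, with array medians between 3.64 and 3.71, and 1 step on this scale is a doubling of signal. The targeted gene checked the labels: Mmp14 had 7.98, 7.74, 7.44 and 7.72 in cKO tumors 1 to 4, against 8.86, 9.12, 9.31 and 9.17 in WT tumors 1 to 4. It fell by 1.40 (SE 0.13, limma adjusted p 0.0444). The adjusted p was 0.353 with the replicate number as a block and 0.0708 with arrays 1 to 4 against 5 to 8 as a block, and with 1 tumor left out it stayed below 0.05 just in the fits lacking cKO 1 or cKO 3. All 12 luminal epithelial markers had a mean of at least 5, among them the epithelial adhesion gene Epcam and the junction gene Cldn3. One tumor stood apart in the collagens: cKO 3 had the lowest of the 8 signals in 22 of the 41 chains, where this was so in 13.6% of all genes. The chains with an unadjusted p below 0.05 are therefore given with and without cKO 3, as are the other chains with a mean of at least 5 where leaving it out moved the difference by over 1.5 times.

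Across the classes, collagen signal was lower in cKO tumors for the type I chains, for Col5a1 and Col5a2 of type V, for Col6a1, Col6a2 and Col6a3 of type VI and for Col12a1. Col4a1, Col4a2, Col4a6, Col7a1, Col8a1 and Col18a1 were likewise lower at an unadjusted limma p below 0.05. The differences of the type IX chains and of chains with a mean below 5, Col7a1 and Col18a1 among the latter, lay between -0.49 and 0.39. No collagen chain passed an adjusted p of 0.05 in limma over all rows, a threshold passed by 0.00902% of all genes. At an unadjusted p below 0.05, 14 of the 41 chains were lower, against 4.20% of all genes, and 1 was higher, against 5.70%. In 10 of the 41 chains all 4 cKO tumors lay below all 4 WT tumors, against 1.75% of all genes, and in 1 chain all lay above, against 3.76%. The median difference over the 41 chains was -0.24, while that over all genes was 0.02. In all, 30 of the 41 chains had a mean difference below 0, against 43.3% of genes. The smallest p that an exact permutation of 4 against 4 tumors can give is 0.0286, which each chain without overlap reaches.

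**Figure D1:**
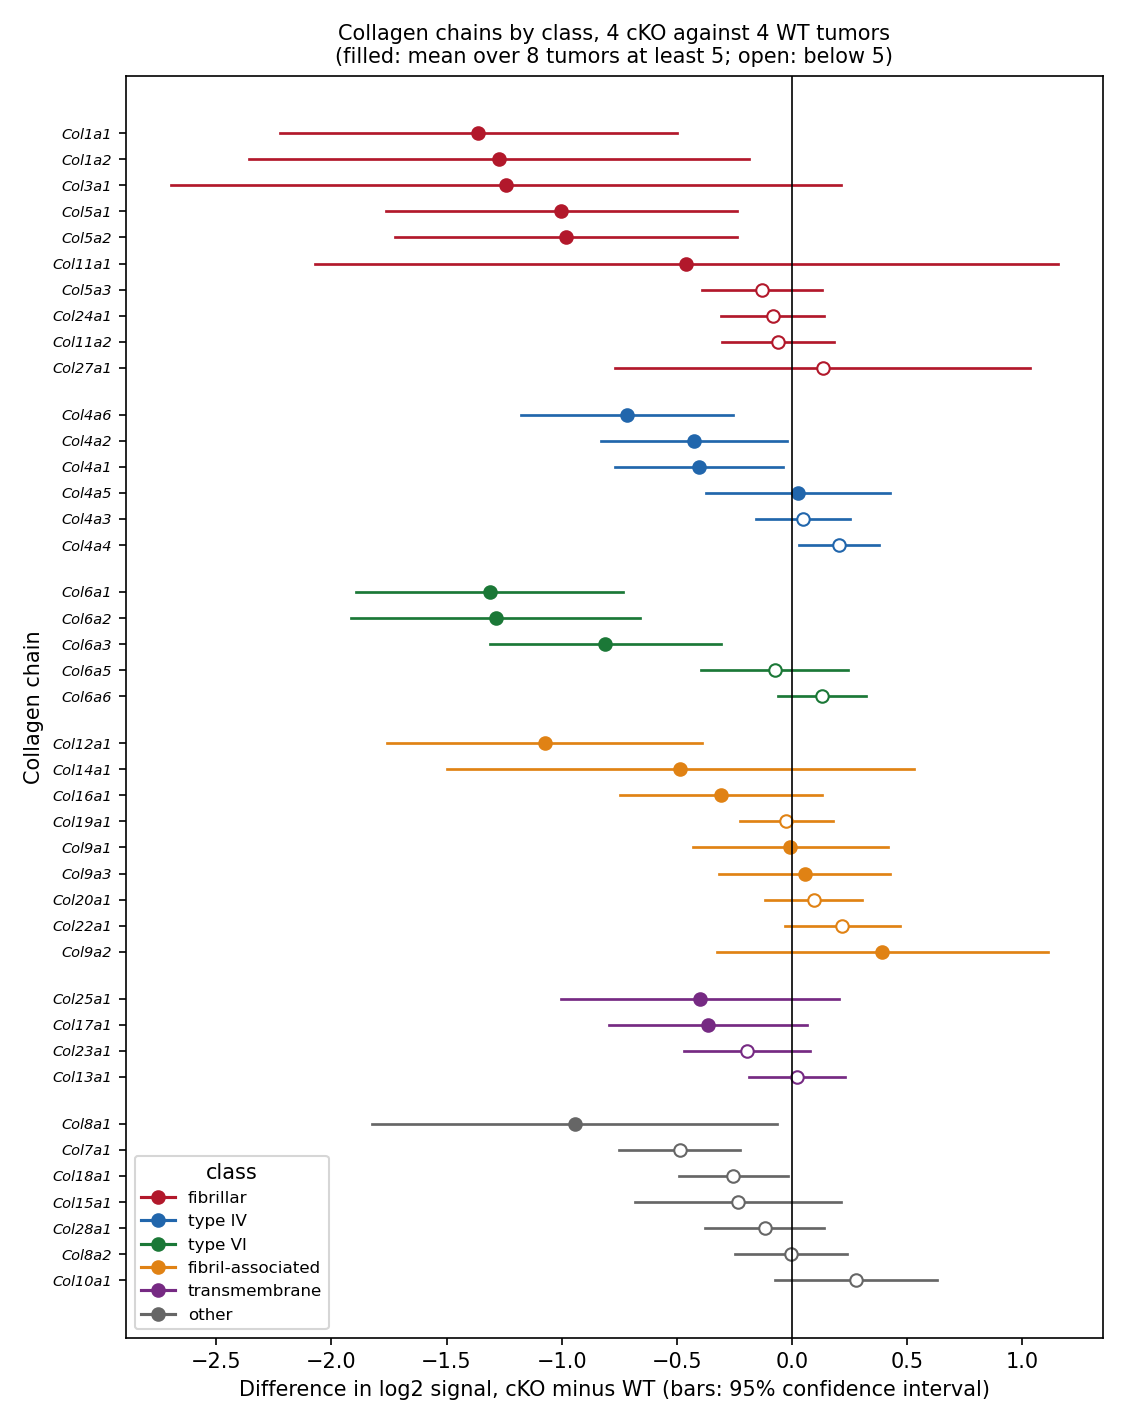
Difference in log2 signal, cKO minus WT, for the 41 collagen chains grouped by class, with 95% confidence intervals from limma (4 tumors per group). Filled points have a mean over the 8 tumors of at least 5 and open points less. The intervals of 14 chains lie wholly below 0, Col6a1, Col6a2, Col1a1 and Col1a2 among them, and the open points lie between -0.49 and 0.28.

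Of all 41 chains, Col6a1 and Col6a2 of type VI collagen had the smallest p-values. The main type VI trimer is built from the chains encoded by Col6a1, Col6a2 and Col6a3, and all 3 were lower in every cKO tumor than in every WT tumor. Col6a1 had 7.53, 6.99, 6.35 and 7.64 in cKO tumors 1 to 4, against 8.52, 8.62, 8.34 and 8.28 in WT tumors 1 to 4. The gap between the highest cKO and the lowest WT tumor was wider than the whole range of the WT tumors. The difference of Col6a1 was -1.31 (SE 0.26, adjusted p 0.164), which is 40.3% of the signal in WT (95% interval 27.0% to 60.2%). Without cKO 3 it was -1.05.

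Col6a2, like Col6a1 on chromosome 10, had 6.64, 6.15, 5.33 and 6.71 in cKO tumors, against 7.63, 7.66, 7.47 and 7.22 in WT tumors. The groups did not overlap, and the order of the cKO tumors was the same as for Col6a1. The difference was -1.29 (SE 0.28, adjusted p 0.200), or 41% of the WT signal, and -1.0 without cKO 3. The mean group differences of Col6a1 and Col6a2 thus lay 0.02 apart. Col6a3, which encodes the longest chain of the trimer, had 5.96, 5.51, 5.19 and 6.19 in cKO tumors, against 6.43, 6.45, 6.31 and 6.90 in WT tumors. It was lower by a smaller amount, again without overlap: -0.81 (SE 0.22, adjusted p 0.308), and -0.63 without cKO 3. The differences of all 3 chains were of similar size within arrays 1 to 4 and within arrays 5 to 8, at -1.31 and -1.31 for Col6a1, -1.25 and -1.32 for Col6a2, and -0.71 and -0.91 for Col6a3.

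The alternative chains of type VI did not share this. Col6a5 lay between 2.97 and 3.60 in cKO tumors, against 3.15 and 3.51 in WT tumors, and Col6a6 between 3.66 and 3.91, against 3.57 and 3.74. Both were at about the array median or below it, and their differences of -0.07 and 0.13 had intervals that include 0. A second row of Col6a1, also near the array median, averaged 3.43 in cKO tumors and 3.86 in WT tumors. Its difference was -0.43 (SE 0.09, adjusted p 0.200), with the same direction as the brighter row and no overlap.

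**Figure D2:**
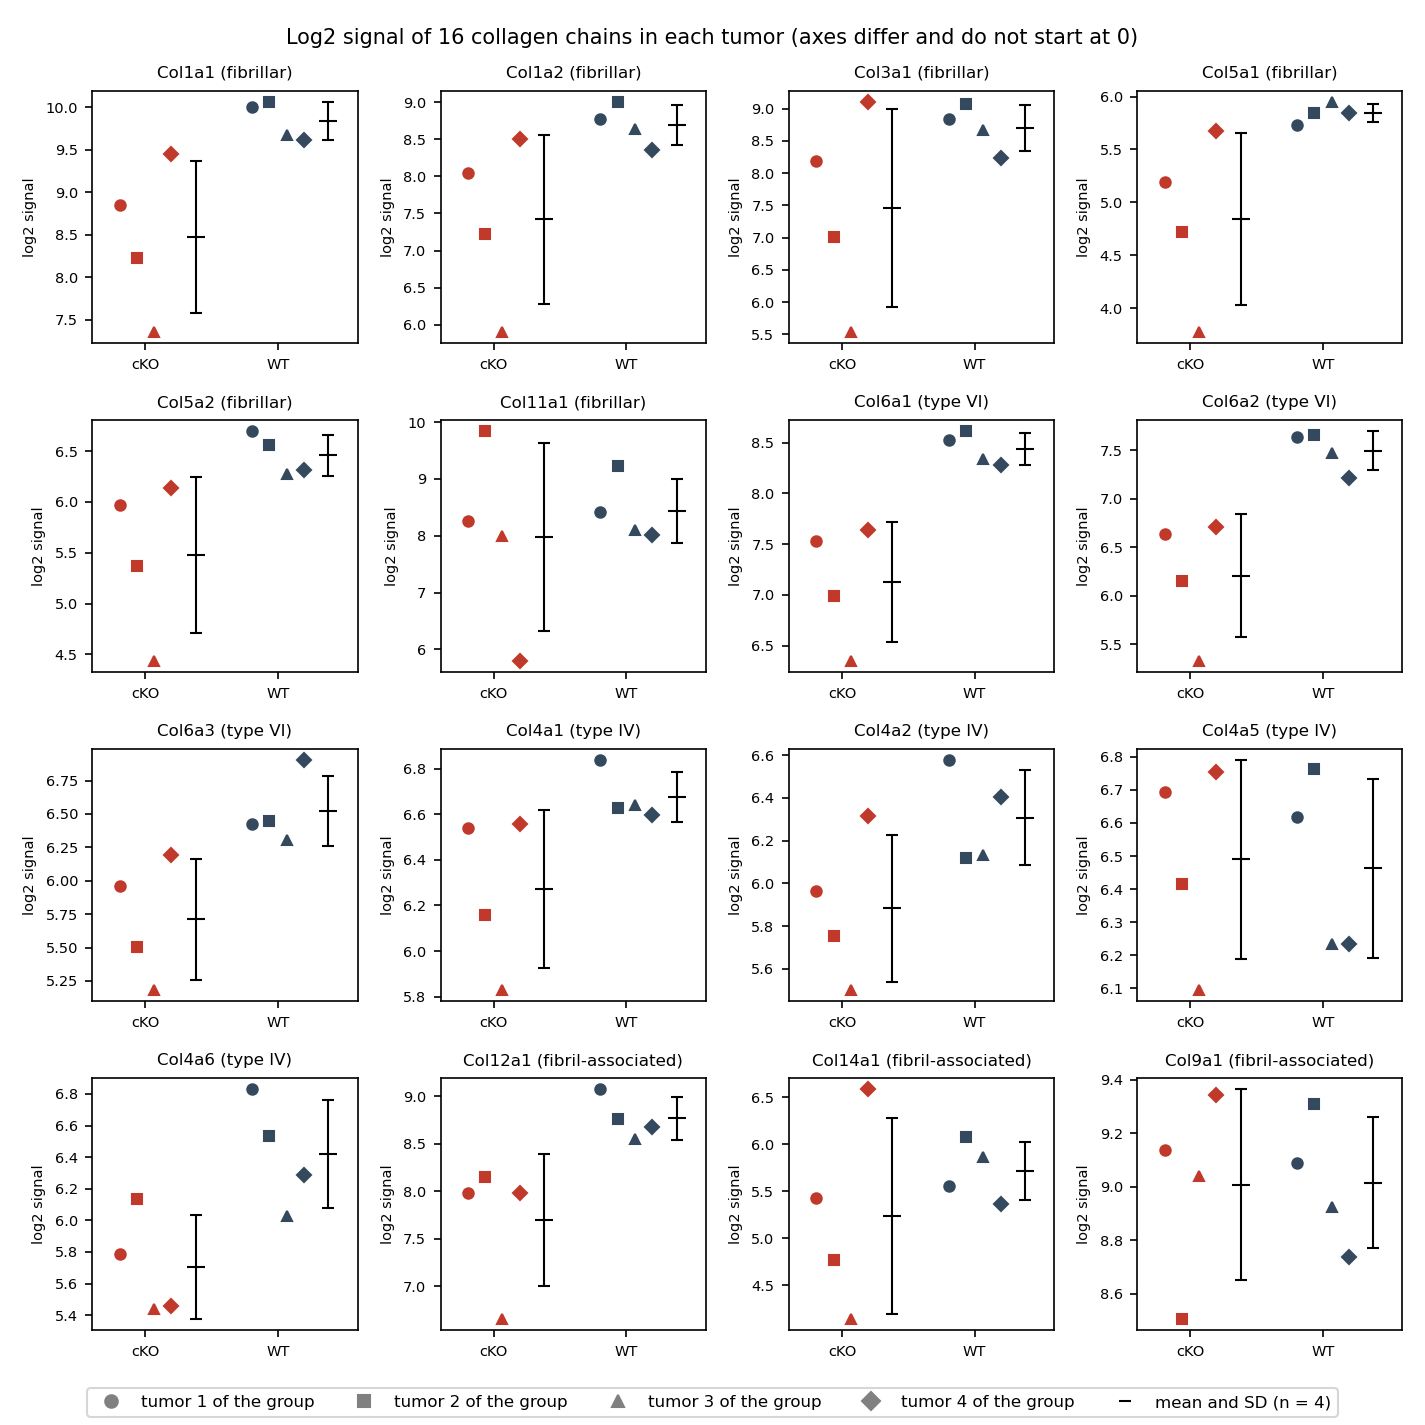
Log2 signal of 16 collagen chains in each tumor, with cKO tumors (red) left of WT tumors (dark blue). Marker shapes give the tumor number within its group, the labels name no pairs of tumors, and bars give the mean and SD (n = 4). In Col6a1, Col6a2 and Col6a3 all cKO tumors lie below all WT tumors, while cKO 4 lies highest of all 8 for Col3a1 and Col14a1 and lowest for Col11a1.

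Among the fibrillar collagens, the mean differences of Col1a1, Col1a2, Col3a1, Col5a1 and Col5a2 lay between -1.36 and -0.98, with a wide spread among the cKO tumors. Over all 41 chains the range was wider among cKO than among WT tumors in 30, against 58.6% of genes. Type I collagen, the main fibril of stroma, is a trimer of Col1a1 and Col1a2 products. Col1a1 had 8.86, 8.23, 7.36 and 9.46 in cKO tumors 1 to 4, against 10, 10.06, 9.68 and 9.61 in WT tumors 1 to 4. The groups did not overlap, but cKO 4 came within 0.2 of the lowest WT tumor. The difference was -1.36 (SE 0.38, adjusted p 0.315), or 38.9% of the WT signal (interval 21.4% to 70.7%). It was -0.99 without cKO 3.

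Col1a2 had 8.05, 7.23, 5.91 and 8.51 in cKO tumors, against 8.78, 9.01, 8.63 and 8.36 in WT tumors, so that cKO 4 lay above WT 4. Its difference was -1.27 (SE 0.48, adjusted p 0.458), and -0.77 without cKO 3. A second, dimmer row of Col1a2 differed by -0.74 (SE 0.24), and in it the groups did not overlap. Col3a1, whose homotrimer joins type I in elastic tissues, spread more widely among cKO tumors than either type I chain. It had 8.18, 7.01, 5.54 and 9.10 in cKO tumors, against 8.83, 9.07, 8.68 and 8.23 in WT tumors. The cKO tumors thus held both the lowest and the highest value, and the difference of -1.24 (SE 0.65) had an interval from -2.70 to 0.22. Without cKO 3 it was -0.60.

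Type V collagen starts fibrils and sets their width, and its Col5a1 and Col5a2 chains were lower in all 4 cKO tumors. Col5a1 had 5.19, 4.72, 3.78 and 5.68 in cKO tumors, against 5.73, 5.84, 5.95 and 5.84 in WT tumors. The WT tumors were close together, and the nearest cKO tumor lay just below them. The difference of Col5a1 was -1.0 (SE 0.34, adjusted p 0.410), and -0.65 without cKO 3. A second row of Col5a1, below the array median, differed by 0.07 and so disagreed with it. Col5a2 had 5.97, 5.37, 4.44 and 6.14 in cKO tumors, against 6.70, 6.56, 6.27 and 6.31 in WT tumors, a difference of -0.98 (SE 0.33), or -0.63 without cKO 3. Col5a3, a rarer chain of type V, averaged 4.47 in cKO tumors and 4.60 in WT tumors, with overlap, a difference of -0.13 that was -0.05 without cKO 3.

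Col11a1, a fibril-starting chain best known from cartilage, followed another pattern. It had 8.26, 9.84, 8.0 and 5.80 in cKO tumors, against 8.42, 9.23, 8.09 and 8.01 in WT tumors. The highest value was in cKO 2 and the lowest in cKO 4, the tumor in which Col3a1 was highest, and cKO 3 lay close to the WT tumors. The mean difference of -0.46 (SE 0.72) turned to 0.27 without cKO 4 and was -1.08 without cKO 2 and -0.19 without WT 2. Of the other fibrillar chains, Col27a1 had its highest value of each group in tumor 2 as Col11a1 did, at 5.62 in cKO 2 and 5.79 in WT 2, while the other 6 tumors lay between 4.02 and 4.61. Tumor 2 was the highest of both groups in 4 of the 41 chains, against 6.34% of all genes. Col11a2 and Col24a1 lay between 3.32 and 3.94 in every tumor, with differences of -0.06 and -0.08. Over the 10 fibrillar chains, 9 had a difference below 0 and 4 an unadjusted p below 0.05. Their median was -0.72, and -0.53 without cKO 3.

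**Figure D3:**
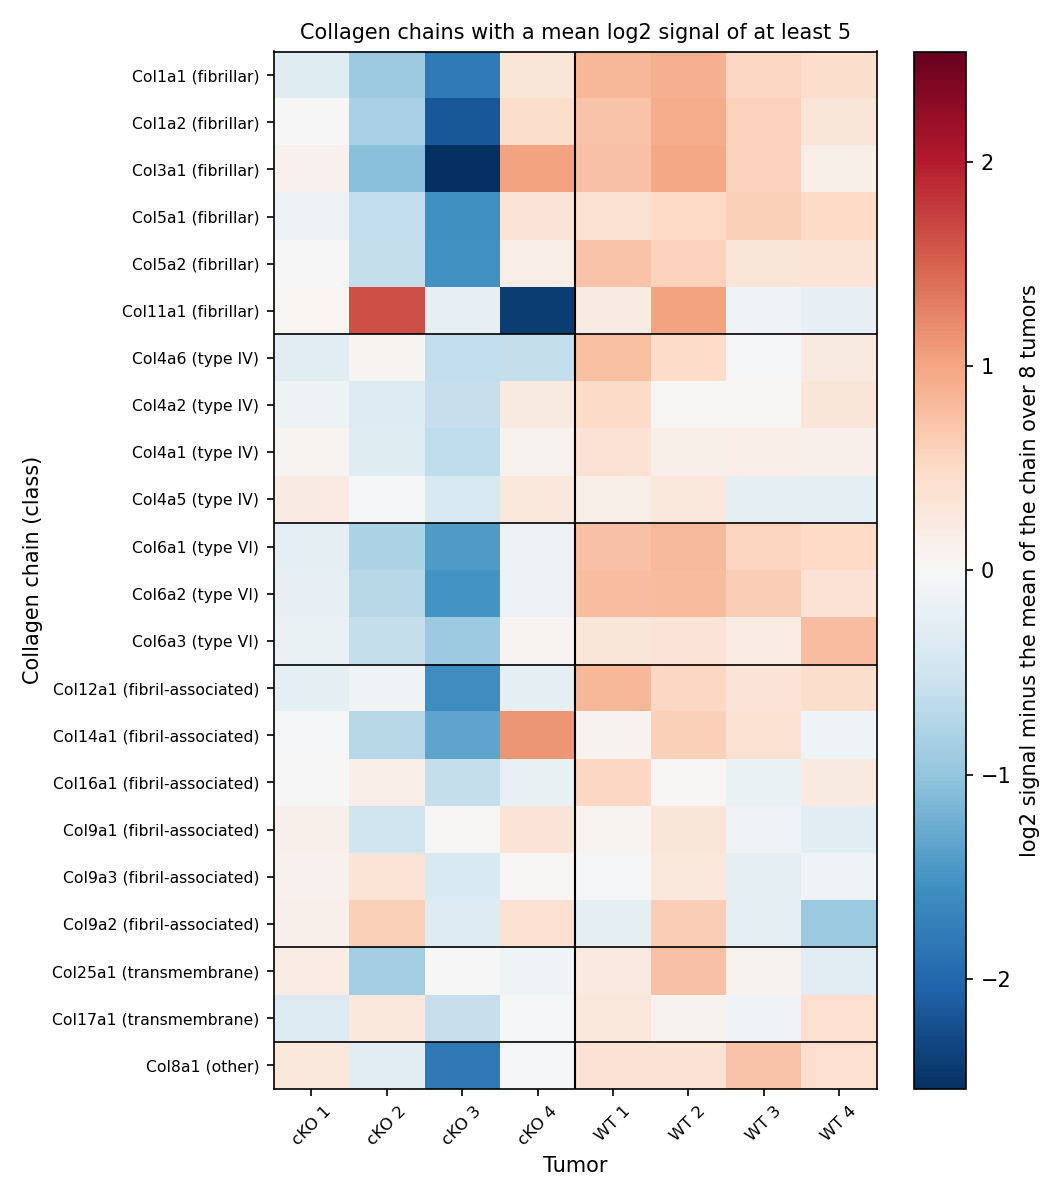
Log2 signal of the 22 collagen chains with a mean of at least 5, minus the chain's mean over the 8 tumors, with cKO tumors left of the line and WT tumors right of it. Blue is below and red above the chain's mean. The cKO 3 column is blue in types I, III, V, VI and XII, and Col11a1 is red in cKO 2 and blue in cKO 4.

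The fibril-associated collagens, which bind to fibril surfaces, were split. Col12a1, whose product sits on type I fibrils, had 7.98, 8.15, 6.66 and 7.98 in cKO tumors, against 9.07, 8.76, 8.55 and 8.67 in WT tumors. All cKO tumors were lower than all WT tumors, and 3 of the 4 lay close together. The difference was -1.07 (SE 0.30, adjusted p 0.315), or 47.5% of the WT signal (interval 29.5% to 76.4%), and -0.73 without cKO 3. Col14a1, a related chain, had 5.43, 4.77, 4.14 and 6.59 in cKO tumors, against 5.56, 6.08, 5.86 and 5.37 in WT tumors. As for Col3a1, cKO tumors held both ends of the range. The difference of Col14a1 was -0.48 (SE 0.45), which was -0.12 without cKO 3 and -0.94 without cKO 4.

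The 3 chains of type IX, a collagen known from cartilage fibrils, did not separate the groups. Col9a1 had 9.14, 8.51, 9.04 and 9.34 in cKO tumors, against 9.09, 9.31, 8.92 and 8.74 in WT tumors, with group means of 9.01 each. Its difference lay between -0.12 and 0.16 with single tumors left out (-0.02 without cKO 3). The 95% interval of the difference ran from -0.43 to 0.42, so a difference as large as that of Col12a1 lay outside it. Col9a3 differed by 0.06 (interval -0.32 to 0.43), and by 0.19 without cKO 3 and -0.05 without cKO 2. Col9a2 differed by 0.39 (interval -0.32 to 1.11), with the lowest value, 5.74, in WT 4, and was 0.15 without that tumor, 0.26 without cKO 2 and 0.67 without WT 2. Its highest values were 7.28 in cKO 2 and 7.31 in WT 2. Beside these chains, the cartilage and bone markers had a median difference of 0.02 over 9 measured genes. Of these, 7, the cartilage proteoglycan gene Acan among them, lay below the array median, whereas the transcription factor Sox9 averaged 10.6 in cKO tumors and 10.7 in WT tumors. Chad, the next brightest of the list, averaged 7.94 in cKO tumors and 7.32 in WT tumors. Its difference was 0.62 (SE 0.88), with overlap.

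Col16a1 lay between 5.83 and 6.61 in cKO tumors, against 6.26 and 6.96 in WT tumors, a difference of -0.31 (SE 0.19) that was -0.16 without cKO 3 and -0.18 without WT 1. Col19a1, Col20a1 and Col22a1 lay between 2.81 and 3.88 in every tumor, with differences of -0.02, 0.10 and 0.22, the last of which was 0.13 without cKO 3. Over the 9 fibril-associated chains 5 differences were below 0 and 4 above, and the median was -0.0067.

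Type IV collagen forms the network of basement membranes. Its common trimer joins products of Col4a1 and Col4a2, neighbours on chromosome 8 that are read in opposite directions from starts that the RefSeq promoter table puts 21 bases apart. Col4a1 had 6.54, 6.16, 5.83 and 6.56 in cKO tumors, against 6.84, 6.63, 6.64 and 6.60 in WT tumors. The groups did not overlap, yet the margin between them was under 0.1. The difference of Col4a1 was -0.40 (SE 0.16, adjusted p 0.481), and -0.26 without cKO 3. Col4a2 had 5.96, 5.75, 5.50 and 6.31 in cKO tumors, against 6.58, 6.12, 6.13 and 6.40 in WT tumors, a difference of -0.42 (SE 0.18, adjusted p 0.496), or -0.30 without cKO 3, with overlap. The mean differences of the 2 chains lay 0.02 apart, and both were smaller in size than those of Col1a1, Col5a1 and Col6a1.

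Col4a5 and Col4a6 are likewise neighbours read in opposite directions, on the X chromosome, with starts 1343 bases apart in that table. Both encode chains of specialised basement membranes, and they differed from each other here. Col4a6 had 5.79, 6.13, 5.44 and 5.46 in cKO tumors, against 6.83, 6.54, 6.03 and 6.28 in WT tumors. It was lower in cKO tumors apart from cKO 2, which lay above WT 3: -0.71 (SE 0.20, adjusted p 0.318), and -0.63 without cKO 3. Col4a5 had 6.69, 6.42, 6.10 and 6.75 in cKO tumors, against 6.62, 6.76, 6.23 and 6.24 in WT tumors. Its difference was 0.03 (interval -0.37 to 0.43), and it ran from -0.06 without cKO 4 to 0.16 without cKO 3. Within tumors, Col4a6 minus Col4a5, each relative to its own mean, averaged -0.37 in cKO tumors and 0.37 in WT tumors. It was highest at 0.13 in cKO 2 among cKO tumors and lowest at 0.19 in WT 2 among WT tumors. This contrast was formed after the values were seen and has no test.

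Col4a3 and Col4a4, chains of the kidney and lung basement membrane, lay between 2.70 and 3.58 in every tumor, below the array median. Col4a4 was the single chain above WT in all 4 cKO tumors, with 3.47, 3.54, 3.44 and 3.58 in cKO tumors, against 3.37, 3.32, 3.33 and 3.19 in WT tumors. The difference was 0.20 (SE 0.08, adjusted p 0.454), and 0.23 without cKO 3. No detection call was used, so it is one of signals that were not shown to be above background.

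The transmembrane collagens, which cross the cell membrane and are shed from it, showed no chain with an unadjusted p below 0.05. Col17a1, a hemidesmosome chain of basal epithelial cells, had 4.91, 5.54, 4.69 and 5.25 in cKO tumors, against 5.57, 5.38, 5.19 and 5.72 in WT tumors. The groups overlapped, and the difference of -0.36 (SE 0.19) was -0.23 without cKO 3. Beside it, 8 measured basal and myoepithelial markers had a median difference of -0.10, which was 0.03 without cKO 3. Col25a1 had 5.96, 4.87, 5.76 and 5.66 in cKO tumors, against 6.01, 6.50, 5.85 and 5.48 in WT tumors. Its difference of -0.40 (SE 0.27) was -0.17 without cKO 2 and -0.22 without WT 2. Col13a1 and Col23a1 averaged 4.11 and 4.47 in cKO tumors, against 4.08 and 4.66 in WT tumors.

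Of the remaining chains, Col8a1, a short network-forming chain of vessel walls and stroma, had 6.69, 6.15, 4.60 and 6.37 in cKO tumors, against 6.79, 6.80, 7.15 and 6.86 in WT tumors. All cKO tumors were lower, most of all cKO 3, and the difference of -0.94 (SE 0.39, adjusted p 0.491) was -0.49 without it. Arrays 1 to 4 gave -0.37 and arrays 5 to 8 gave -1.51. Col7a1 forms the fibrils that anchor epithelium to the stroma. It had 4.44, 4.35, 4.49 and 4.26 in cKO tumors, against 4.78, 4.62, 5.03 and 5.06 in WT tumors. Here cKO 3 was the highest of the cKO tumors, unlike in the stromal fibril chains, and the groups did not overlap. The difference of Col7a1 was -0.49 (SE 0.12, adjusted p 0.227), and -0.52 without cKO 3.

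Col18a1, a basement membrane chain that is the source of endostatin, had 4.66, 4.70, 4.46 and 4.44 in cKO tumors, against 4.95, 4.70, 4.67 and 4.95 in WT tumors. Its difference was -0.25 (SE 0.10, adjusted p 0.489), and -0.22 without cKO 3, with overlap. Col15a1, its relative around vessels and muscle, differed by -0.24 (SE 0.20), and by -0.11 without cKO 3, -0.10 without WT 2 and -0.39 without cKO 1. Col10a1, known from growth plate cartilage, differed by 0.28 (SE 0.16), and by 0.14 without WT 3. Col8a2 and Col28a1 had differences of -0.0042 and -0.12, which were 0.03 and -0.02 without cKO 3. Both lay below 4 in every tumor.

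The cells that make collagens were followed through marker lists without collagen genes. Of 16 fibroblast markers 13 had a lower mean in cKO tumors, against 43.3% of all genes. At an unadjusted limma p below 0.05, 2 were lower, against 4.2% of all genes. These were the matrix protein gene Postn (-1.26, and -0.78 without cKO 3) and the growth factor receptor gene Pdgfra (-0.71). The median over the list was -0.16, and 0.0080 without cKO 3. The summed linear signal of the list, in which the brightest gene, Postn, weighs most, ran from 664 to 2715 in cKO tumors and from 2765 to 3105 in WT tumors. Of the defining markers Clec3b and Tcf21 lay below the array median. The fibroblast score, the mean of signals relative to each gene's own mean, was 0.21, -0.52, -1.11 and 0.57 in cKO tumors, against 0.21, 0.31, 0.37 and -0.04 in WT tumors. Among the cKO tumors it was highest in cKO 4, then in cKO 1, cKO 2 and cKO 3. The type I chains, Col3a1, Col5a1, Col5a2, Col6a1, Col6a2, Col6a3, Col14a1, Col4a1, Col4a2 and Col4a5 had the same order, as did the dim chains Col6a5 and Col8a2. Of the chains lower at an unadjusted limma p below 0.05, Col12a1, Col8a1, Col7a1, Col4a6 and Col18a1 had other orders. The share of all genes with this order was not counted, so the shared order is a description and no measure of a link.

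In cKO 4 the fibroblast score and the summed signal of the same list gave different orders. That tumor had the highest score of all 8, while the sum was lower in every cKO tumor than in every WT tumor. The score weighs all genes alike, whereas the sum weighs bright genes most. Postn was the brightest of the list, with a mean over the 8 tumors of 10.13 against 7.70 for the next, Dcn. A sum without Postn was not formed, so the separation by the sum cannot be read as one of the whole list. Relative to the WT mean, the matrix gene Dpt stood at 1.84 in cKO 4, Postn at -0.60 and Pdgfra at -0.09. The collagen chains of cKO 4 lay on both sides as well. Its Col3a1 and Col14a1 were the highest of all 8 tumors, at 0.40 and 0.87 relative to the WT mean. Near that mean were Col1a2 at -0.19, Col5a1 at -0.17 and Col4a2 at 0.01. Further below it were Col6a1 at -0.80, Col6a2 at -0.79, Col12a1 at -0.78, Col4a6 at -0.96 and Col1a1 at -0.38. Of the 41 chains 14 lay below all 4 WT tumors in cKO 4, against 20.7% of all genes. The part of fibroblast content in the collagen differences was not tested.

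**Figure D4:**
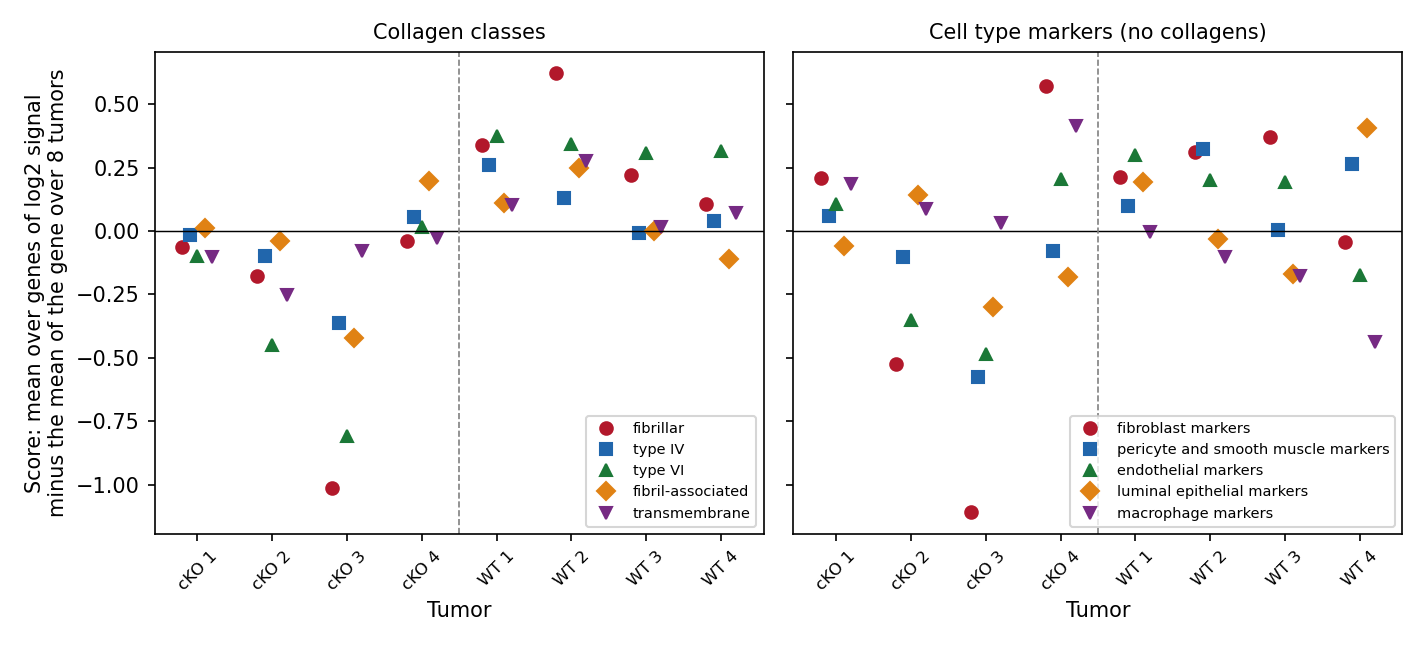
Score of 5 collagen classes (left) and 5 marker lists without collagens (right) in each tumor, as the mean over genes of log2 signal minus the gene's mean over the 8 tumors, with cKO tumors left of WT tumors. The type VI score lies between -0.81 and 0.02 in cKO tumors and between 0.31 and 0.38 in WT tumors, while the fibroblast score of cKO 4, at 0.57, is above all WT tumors.

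Markers of other cell types are given beside the collagens. Over all genes, 43.3% had a lower mean in cKO tumors. At an unadjusted limma p below 0.05, 4.2% of all genes were lower and 5.7% higher. The 10 pericyte and smooth muscle markers had a median of -0.42, or -0.20 without cKO 3, with 4 lower at an unadjusted p below 0.05, and summed signals from 560 to 1038 in cKO tumors and from 983 to 1090 in WT tumors. Among them was the mural cell receptor gene Notch3 at -0.48. The 11 endothelial markers had a median of -0.25, with 1 at such a p, the transcription factor gene Erg at -0.59, and sums from 558 to 958 in cKO tumors and from 695 to 1022 in WT tumors. Most macrophage markers ran the other way, with a median of 0.39 over 11 measured genes, of which 9 had a higher mean and 2 a lower one. At an unadjusted p below 0.05, 7 of them were higher, and the sums ran from 1185 to 1407 in cKO tumors and from 806 to 1111 in WT tumors. Of 12 luminal epithelial markers 11 had a lower mean, with a median of -0.12 and sums from 8169 to 10315 in cKO tumors and from 8735 to 12005 in WT tumors. The keratin gene Krt19 was the 1 with an unadjusted p below 0.05, at -1.15, and -0.82 without cKO 3. Of 8 skeletal muscle markers 7 had a lower mean, with a median of -0.31, 0 at such a p and a score of 1.37 in WT 2 against -0.59 in WT 3. Adipocyte markers had a median of -0.05, or 0.07 without cKO 3, and nerve and Schwann cell markers one of -0.15, or -0.05 without cKO 3. None of these genes passed the adjusted threshold, and the part of these cells in the collagen differences was not tested.

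The genes that process collagen into fibers had small median differences. Of 32 listed genes of collagen synthesis and crosslinking 28 were measured, of which 16 had a lower mean, against 43.3% of all genes. At an unadjusted limma p below 0.05, 5 were lower, against 4.2% of all genes, and 1 was higher, against 5.7%. In 4 of the 28 all cKO tumors lay below all WT tumors, against 1.75% of all genes. The median over the 28 genes was -0.07, and -0.04 without cKO 3. Lox, which crosslinks collagen outside the cell, had the widest difference of the 4 with the smallest p, at -1.47 (SE 0.53), and -0.87 without cKO 3. Its relative Loxl1 stood at -0.82, and at -0.49 without cKO 3. The higher gene was Pcolce2, which encodes an enhancer of procollagen processing, at 0.87 (SE 0.39) with overlap. Mia3, which helps load procollagen for export, stood at -0.38, and P3h1, a prolyl hydroxylase of the chains, at -0.59. Of 13 listed collagen receptors 12 were measured, with a median of -0.15. At an unadjusted limma p below 0.05, 2 were lower, against 4.2% of all genes. These were the integrin chains Itga11 (-0.57) and Itga2 (-0.62). The receptor kinase gene Ddr2 stood at -0.58, or -0.35 without cKO 3, and the leukocyte receptor gene Lair1 at 0.41. No gene of either list passed the adjusted threshold.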

How the data were processed

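Total RNA from 8 tumors was hybridised to Affymetrix arrays from 400 ng per tumor, per the labels' protocols. The authors deposited a table of log2 signals with a column for each tumor. RMA and limma are named in the submitters' processing notes; neither their versions nor their settings are given in the sources. Of 41345 rows, 23521 had 1 gene symbol (22180 genes), 1814 had several and 16010 are unnamed here; 23328 symbols were taken from RefSeq (GRCm38.p6) by gene identifier. A gene with several rows was represented by its row of highest mean signal.

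All 23521 rows were fitted in R 4.3.3 by limma 3.58.1 (lmFit, then eBayes, cKO minus WT without covariates, two-sided), with Benjamini-Hochberg adjustment over all rows. The fit was tested on simulated data. Values printed for chains are log2 signals or differences of them, and percentages of WT signal are these differences turned to ratios. No detection call was used, and precision is limited by the number of arrays. No pair of arrays had the same value in over 0.058% of rows. Each tumor is a biological replicate per the labels.

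Named with values are all chains with a mean of at least 5 or an unadjusted p below 0.05, Mmp14, and up to 4 genes per pathway list and 3 per marker list by smallest p, or the brightest 2. Sox9 and Chad are the brightest 2 of their list. Acan, Dpt and Pcolce2 were chosen after their values were seen. The collagen list, its classes and the other lists were chosen with earlier results of these data known. Alternatives were quantile normalization, a shift to 1 median, a filter on dim rows, the mean of all rows of a gene, a trended robust variance, the replicate number or arrays 1 to 4 against 5 to 8 as a block, and leaving out each tumor.

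The replicate numbers were checked for pairing by the correlation of same-numbered tumors' deviations from their group means, over 10186 rows with a mean of at least 5. It was -0.02, -0.20, 0.29 and -0.24 for numbers 1 to 4. Tumor cKO 3 correlated best with WT 3, and no other cKO tumor did so with the WT tumor of its number. The labels name no pairs, and so few correlations cannot exclude pairing. The main fit took the tumors as unpaired. The array number is read from the names of the raw files and is not a recorded batch.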

Additional observations from a re-analysis of the deposited data

Results flagged for a closer look

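A tumor far from the other 3 of its group was found for 3 of the 41 chains, over 82 groups of chain and genotype, by Dixon's test at the 95% level, where chance gives about 1 in 20. The 3 of 82 did not exceed that rate. Col12a1 was 6.66 in cKO 3, and between 7.98 and 8.15 in the other cKO tumors. Among 14 groups of class scores, tested apart from the chains, the fibrillar class score was flagged, at -1.01 in cKO 3 and between -0.18 and -0.04 in the other cKO tumors. The other 2 chains lay near or below the array median: Col8a2 was 3.91 in cKO 4, with the other cKO tumors between 3.55 and 3.57, and Col19a1 was 3.00 in cKO 4, with the others between 2.85 and 2.86.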

How the results depend on the processing

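No chain passed the adjusted threshold in limma under any alternative, with 9 to 15 chains lower at an unadjusted p below 0.05 when single tumors were left out (9 without WT 1, 11 without cKO 3) and 0 to 2 higher. All 14 chains lower at that level kept their sign under every alternative that tested them. The filter on dim rows leaves out Col7a1 and Col18a1. The 14 were also lower in both sets of arrays (1 to 4, 5 to 8). Of them, 6 moved by over 1.5 times under some alternative, 5 of them without cKO 3. Chains whose sign changed under some alternative numbered 10, all of them outside the 14. The 14 were picked by p from these same data, which favours this split. In the 10 of the 14 without overlap, leaving out a tumor or taking 1 set of arrays could not change the sign. The kept signs are therefore no further support. Restricted to rows with a mean of at least 5, which leaves 22 chains, the medians were -0.60 over all chains (-0.24 over all 41), -1.12 for fibrillar (-0.72), -0.41 for type IV (-0.19), -1.29 for type VI (-0.81) and -0.16 for fibril-associated (-0.0067). Of the class of other chains just Col8a1 was left, at -0.94 (-0.24), so this value is that of 1 chain. In brackets are the medians with the dim chains, which this alternative drops. Of the 22 chains 3 had a mean difference above 0, and 0 were higher at an unadjusted p below 0.05 in limma. With single tumors left out, the median of all chains ran from -0.29 to -0.12 (-0.12 without cKO 3, -0.14 without WT 2), that of the transmembrane chains from -0.33 to -0.13 (lowest in size without cKO 2) and that of the other chains from -0.29 to -0.11. With the mean of all rows of a gene, Col6a1 differed by -0.87 and Col5a1 by -0.47. With the replicate block, 12 chains were lower and 0 higher at an unadjusted p below 0.05. Mmp14 differed by -1.40 with the replicate block (adjusted p 0.353) and with the arrays as a block (adjusted p 0.0708). With single tumors left out it differed by -1.48 to -1.30, at an adjusted p between 0.0429 and 0.211 that was below 0.05 in just the fits lacking cKO 1 or cKO 3. The cause of these changes was not tested. For the 19 chains with a mean below 5, signal close to the array median limits what a difference can show.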
